A study of Homo sapiens with 6 samples.

Results

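Transcripts of mismatch repair, base excision repair and nucleotide excision repair were examined in MM1S, an established human cell line derived from multiple myeloma, a cancer of plasma cells. The genes came from a list of 34 symbols, 6 of mismatch repair, 18 of base excision repair and 10 of nucleotide excision repair, and were chosen by name. A gene was read where a probe set of the array carried its symbol alone, which held for 32 of the 34, out of 19775 genes read in this way. PMS2 and NEIL1 are not analysed here: their probe sets list further symbols. RNA came from MM1S cells in normoxia on 3 arrays and from MM1S cells labelled hypoxia, exposed for 24 h, on 3 arrays. The treatment text of all 6 arrays, those labelled normoxia included, names the 24 h exposure, so the groups were taken from the condition given for each array. Both groups are 1 and the same cell line, so no other myeloma cells or normal plasma cells were compared, and the sources used here do not give the oxygen concentration. The labels do not say whether the arrays of a group came from separate cultures, so p-values measure the spread between these arrays, which may be technical.

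Mismatch repair removes wrongly paired bases and small loops left behind by replication. MSH6 and MSH3 are alternative subunits of the complex that finds the error, MLH3, PMS1 and PMS2 encode MutL homologues, and the exonuclease EXO1 removes the strand that holds the error. Base excision repair starts with a glycosylase that cuts out a damaged base, after which an endonuclease opens the strand and a polymerase and a ligase close the gap. Nucleotide excision repair cuts out a short stretch of strand around bulky damage, found either in the genome at large or where RNA polymerase has stalled. In B cells, base excision and mismatch repair also process the uracils made during antibody diversification.

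Each value below is an intensity of 1 probe set on a linear scale, given per array in the order of the replicate numbers 0, 1 and 2, or as mean ± SD (n = 3 arrays per group). A gene was read by its brightest probe set. Changes are differences of log2(intensity + 16), hypoxia minus normoxia, with the standard error (SE) and an adjusted p from limma, a linear model fitted over all genes with Benjamini-Hochberg adjustment. A gene is said to have risen or fallen where that adjusted p was under 0.05. Intensities of different probe sets are not on a common scale, so genes are compared by their changes and not by their levels.

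The labels were checked against known transcripts. PFKFB4 went from 193 ± 17.9 to 3434 ± 20.9, NDRG1 from 1612 ± 67.7 to 7643 ± 319, EGLN1 from 1529.9 ± 142 to 3718 ± 226 and VEGFA from 2715 ± 94.9 to 4413 ± 208, all of them genes known to be induced at low oxygen. Of 9 plasma cell markers, 8 had a mean intensity of at least 100, CD27 being the exception. Of 19 markers of other cell types, 5 did: MS4A1, PAX5, CD3D, COL1A1 and HBB. The marker sums of the plasma cell list were 47914 to 49968 in normoxia and 47769 to 50607 in hypoxia. HBB, the only erythroid marker read, was at 1677 to 1898 in normoxia and 1102 to 1156 in hypoxia. The summed level of the 4 epithelial markers, each with a mean under 100, was 88.6 to 121 in normoxia and 151 to 161 in hypoxia. The part of either difference in the results was not tested.

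Most repair genes that changed were lower in hypoxia. Of the 32 genes, 15 fell (46.9%), 5 rose (15.6%) and 12 did not pass, with a median log2 change of -0.27, against -0.00016 over all genes. Over all 19775 genes, 20.6% fell and 16.9% rose. The list holds few dim genes, and among the 10287 genes with a mean intensity of at least 100 the shares were 39.0% and 31.3%; of the 31 repair genes in that set, 18 fell (58.1%) and 5 rose (16.1%). A fall of at least 2-fold was seen for 4 genes, EXO1, UNG, NTHL1 and NEIL3, against 4.75% of all genes, and no repair gene rose as much, against 2.92% of all genes. The 3 arrays of a condition did not overlap with those of the other for 24 of the 32 genes (75%), against 47.9% of all genes. Hypoxia was lower in 19 of them and higher in 5, against 25.8% and 22.1% of all genes. The shares of all genes for 2-fold changes and for groups without overlap include dim genes and were not computed without them. They are thus no like background for a list with few dim genes. In bulk RNA, fewer cells with a transcript and less of it per cell cannot be told apart.

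**Figure D1:**
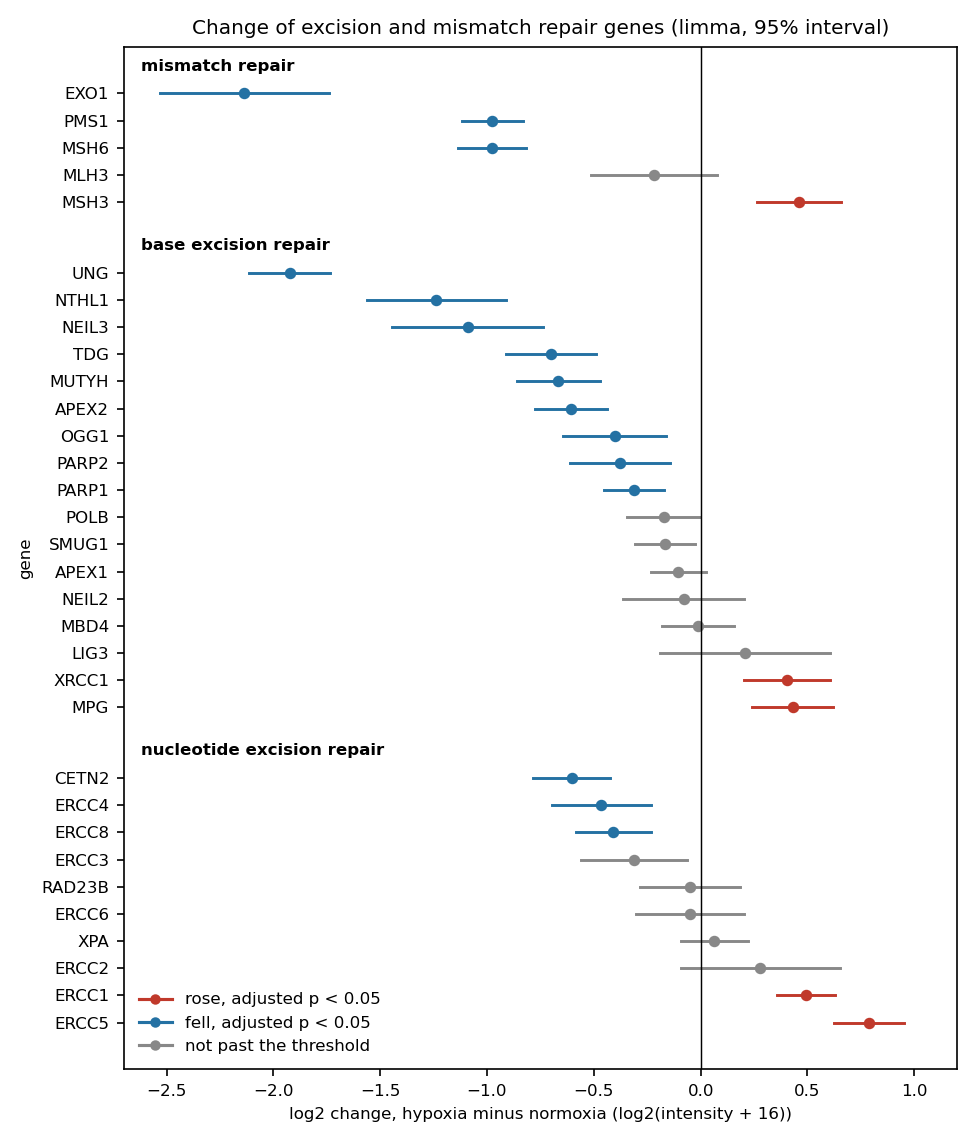
Log2 change of the 32 repair genes, hypoxia minus normoxia, by branch; points are limma estimates, bars 95% confidence intervals, and colour marks the call at an adjusted p of 0.05. EXO1 and UNG lie farthest to the left, at -2.14 and -1.92, and ERCC5 farthest to the right, at 0.79.

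The medians of the 3 branches lay apart. The 5 mismatch repair genes read had a median change of -0.97, with 3 lower (60%) and 1 higher. The 17 base excision repair genes had a median of -0.31, with 9 lower (52.9%) and 2 higher. The 10 nucleotide excision repair genes had a median of -0.050, with 3 lower (30%), 2 higher and 5 not past the threshold. These shares compare with 20.6% of all genes that fell. The shares that rose were 20%, 11.8% and 20%, against 16.9%. With dim genes left out, 3 of 5, 11 of 17 and 4 of 9 genes fell (60%, 64.7% and 44.4%), against 39.0%. Those that rose were then 20%, 11.8% and 22.2%, against 31.3%. With so few genes, the shares of nucleotide excision repair that fell are near the background, though above it. The share of mismatch repair rests on 5 genes. The difference between branches was not tested, since the genes were chosen with results of these data known. The median of nucleotide excision repair was 0.0091 without hypoxia replicate 0 and 0.016 without normoxia replicate 2. That of mismatch repair was -0.48 with the mean of all probe sets of a gene.

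**Figure D2:**
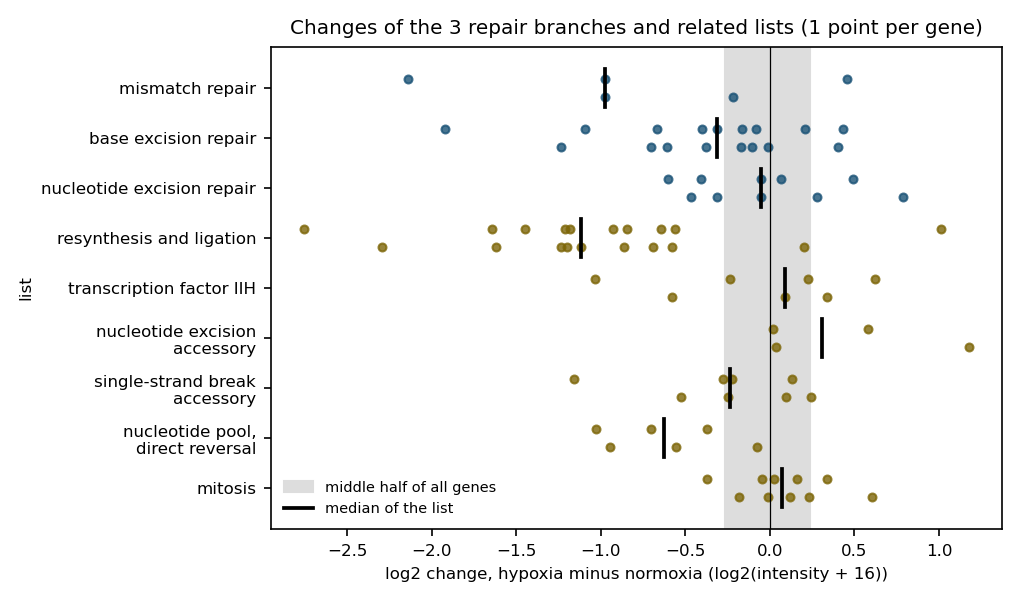
Log2 change, hypoxia minus normoxia, of each gene in the 3 repair branches and in 6 related lists (1 point per gene); black bars are medians and the grey band spans the quartiles of all genes, -0.26 to 0.24. The median lies at -0.97 for mismatch repair, -0.31 for base excision repair and -0.050 for nucleotide excision repair, and at -1.12 for resynthesis and ligation.

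In mismatch repair, the recognition subunits MSH6 and MSH3 were called in opposite directions on their brightest probe sets, and the call of MSH3 rests on that probe set alone. MSH6, the subunit for single mispairs, was at 4258, 4521 and 4402 in normoxia and at 2157, 2367 and 2164 in hypoxia. All hypoxia arrays lay below all normoxia arrays, and MSH6 fell by 0.97 (SE 0.065, adjusted p = 0.000136). MSH3, which takes the place of MSH6 in the complex for larger loops, was at 666, 644 and 600.1 in normoxia and at 960.4, 844 and 842 in hypoxia. It rose by 0.46 (SE 0.080, adjusted p = 0.00559) on its brightest probe set. Its second probe set was at a change of 0.022, and with the mean of its 3 probe sets the call was lost (0.10, adjusted p = 0.598). Within an array, the log2 value of MSH6 minus that of MSH3, each on its brightest probe set, was 2.76 ± 0.0998 in normoxia and 1.32 ± 0.159 in hypoxia, a change of -1.43.

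EXO1, the exonuclease of the pathway, had the largest change of the 32 genes. It was at 984, 1042 and 967 in normoxia and at 164, 258 and 232 in hypoxia, 4.58-fold lower by the means. Replicate 0 was the lowest hypoxia array, and the groups lay far apart (change of -2.14, SE 0.161, adjusted p = 0.000207). PMS1, a MutL homologue, was at 1955, 2063 and 2085 in normoxia and at 998, 1050.5 and 1031 in hypoxia. It fell by 0.98 (SE 0.058, adjusted p = 9.49e-05), with no overlap between the groups. MLH3, another MutL homologue, read 277 ± 5.06 in normoxia and 237 ± 38.7 in hypoxia. Its change of -0.22 did not pass (95% confidence interval -0.51 to 0.076, adjusted p = 0.225), and 1 hypoxia array lay within the normoxia range.

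The promoters of these genes were searched for forms of the E2F element, the site of the factors that drive S phase genes, since MSH6, PMS1 and EXO1 fell together. RefSeq promoter sequences (GRCh38.p14, 250 bases before to 50 after each start site) were found for 29 of the 32 genes, 41 promoters in all, and not for SMUG1, NEIL2 and POLB. The letters TTTCCCGC, TTTGGCGC, TTTCCCGG or TTTGGCGG, on either strand, stood in 4 of the 41 (9.76%), against 4.31% of all 35116 promoters. The genes were MSH6, PMS1, MSH3 and PARP1. Other forms of the E2F element were not searched for, so a gene not named here may still hold one. The first 3 are shown 5′ to 3′ on the gene's strand, with the matched letters in capitals, as those of mismatch repair.
MSH6: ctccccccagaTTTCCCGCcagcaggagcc
PMS1: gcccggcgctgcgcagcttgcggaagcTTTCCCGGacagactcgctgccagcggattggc
MSH3: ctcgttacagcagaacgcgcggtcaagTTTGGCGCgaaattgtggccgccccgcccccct

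These stretches are chr2:47783137-47783166, chr2:189784344-189784403 and chr5:80654518-80654577, all on the plus strand. The match begins 3 bases after a listed start site in MSH6, 79 bases before a listed start site in PMS1 and 107 bases before that in MSH3. Of the 4 promoters listed for MSH6, only that shown held any of the 4 forms. Of the 4 genes with such letters, MSH6, PMS1 and PARP1 fell, and MSH3 rose on its brightest probe set but not with the mean of its probe sets. Neither listed promoter of EXO1 held any of the 4 forms, and other forms were not searched for. A match describes the letters only and is not a measured binding site.

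In base excision repair, the glycosylases held the larger falls. Of the 10 glycosylase genes read, 6 fell, 1 rose and 3 did not pass, with a median change of -0.53. Of the 7 genes of the later steps, 3 fell, 1 rose and 3 did not pass, with a median of -0.17. The shares that fell were 60% and 42.9%, against 20.6% of all genes, and those that rose 10% and 14.3%, against 16.9%. With dim genes left out, the shares that fell were 70% and 57.1%, against 39.0%. The 3 falls of at least 2-fold in this branch, UNG, NTHL1 and NEIL3, were all of glycosylases.

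**Figure D3:**
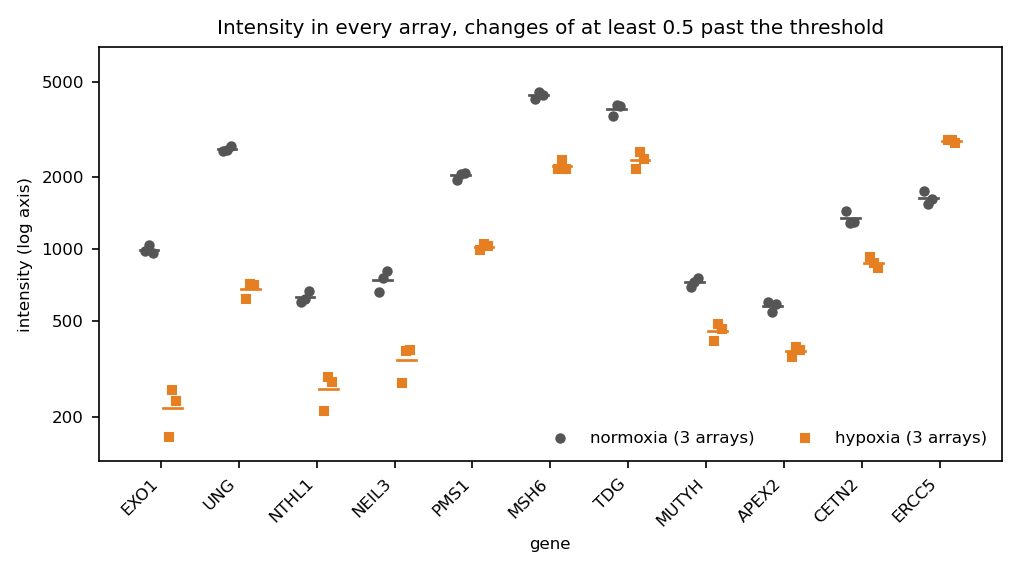
Intensity (log axis) in every array of the 11 repair genes past the threshold with a log2 change of at least 0.5 in size; circles are normoxia arrays, squares hypoxia arrays and bars the means of 3. For 10 of these genes, from EXO1 to CETN2, all hypoxia arrays lie below all normoxia arrays, and for ERCC5 all lie above.

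Among the glycosylases that act on uracil and its relatives, UNG fell most. UNG removes uracil from DNA, in the nucleus and in mitochondria, and its probe set read 2566, 2607 and 2700.4 in normoxia and 618, 719 and 708 in hypoxia. The means differed 3.85-fold and the groups lay far apart (change of -1.92, SE 0.077, adjusted p = 3.79e-05). SMUG1, another uracil glycosylase, was at 735 ± 6.63 in normoxia and 654 ± 26.9 in hypoxia, and its change of -0.17 did not pass (95% confidence interval -0.31 to -0.026, adjusted p = 0.0690), although the groups did not overlap. It passed in 4 alternatives, with dim genes left out among them (adjusted p = 0.0174). The log2 value of UNG minus that of SMUG1 changed by -1.76 between the conditions, from 1.81 ± 0.0354 to 0.056 ± 0.119. TDG, which removes thymine and oxidised methylcytosine paired with guanine and acts in DNA demethylation, was at 3593, 3998 and 3961 in normoxia and at 2159.7, 2552 and 2384 in hypoxia. It fell by 0.70 (SE 0.086, adjusted p = 0.00133), and its other probe set fell by 0.61.

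MBD4, a glycosylase with a methyl-CpG-binding domain, could not be given a direction, since its 4 probe sets disagreed. The brightest read 2403, 2371 and 2548 in normoxia and 2275, 2435 and 2556 in hypoxia, at a change of -0.012 (95% confidence interval -0.18 to 0.16). The next in brightness was at 2385 ± 125 and 2405 ± 177, again with overlapping groups. A further probe set fell from 1571 ± 53.0 to 1124 ± 85.0 (change of -0.48, adjusted p = 0.00496 in the limma fit of all probe sets). The dimmest rose from 382 ± 35.2 to 699.8 ± 13.1 (change of 0.85, adjusted p = 0.000623 in the limma fit of all probe sets). MBD4 was the only 1 of the 32 genes with probe sets past the threshold in both directions.

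The glycosylases of oxidised bases that passed all fell. NTHL1, which removes oxidised pyrimidines, was at 601, 622 and 670.4 in normoxia and at 210.3, 294 and 279 in hypoxia. The means differed 2.42-fold (change of -1.24, SE 0.132, adjusted p = 0.000752), with replicate 0 the lowest in hypoxia. NEIL3, a glycosylase expressed in proliferating cells, was at 665, 761 and 809 in normoxia and at 277, 375 and 379 in hypoxia. It fell by 1.09 (SE 0.143, adjusted p = 0.00178), again with hypoxia replicate 0 the lowest. NEIL2, of the same family, was at 181 ± 8.03 in normoxia and 172 ± 26.3 in hypoxia, and the groups overlapped (change -0.080; 95% confidence interval -0.36 to 0.21). The log2 value of NEIL3 minus that of NEIL2 changed by -1.01, from 1.94 ± 0.0939 to 0.93 ± 0.0433.

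MUTYH and OGG1 both act on 8-oxoguanine lesions, OGG1 on the oxidised guanine and MUTYH on the adenine paired with it. MUTYH was at 698, 730.1 and 757 in normoxia and at 413, 486 and 463 in hypoxia, and fell by 0.67 (SE 0.079, adjusted p = 0.00117). OGG1 was at 409, 435 and 496 in normoxia and at 341, 304 and 356 in hypoxia on its brightest probe set, which fell by 0.40 (SE 0.098, adjusted p = 0.0211). Its second probe set fell from 314.5 ± 35.9 to 78.4 ± 16.6 (change of -1.82, adjusted p = 0.000314 in the limma fit of all probe sets), so the size of the fall differed between them. The call on the brightest probe set was lost without normoxia replicate 1 (-0.42, adjusted p = 0.0569), normoxia replicate 2 (-0.33, adjusted p = 0.0562) or hypoxia replicate 1 (-0.34, adjusted p = 0.0645).

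MPG, which removes alkylated purines and hypoxanthine, was the only glycosylase gene that rose. It read 1085, 1173 and 1179 in normoxia and 1431, 1652 and 1572 in hypoxia (change of 0.43, SE 0.077, adjusted p = 0.00627). All 3 hypoxia arrays lay above all normoxia arrays.

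An E box, CACGTG, the site bound by MYC with MAX and by related factors, stood in 7 of the 41 promoters (17.1%), against 7.26% of all 35116. It was searched for because forms of the hypoxia response element, ACGTG or GCGTG, overlap with it: every E box holds ACGTG on both strands. The hypoxia response element forms stood in 29 of the 41 promoters (70.7%) and in 48.4% of all. The genes with an E box were UNG, TDG, NTHL1, MPG, APEX1, LIG3 and ERCC6. Those past the threshold are shown 5′ to 3′ on the gene's strand with the E box in capitals, for UNG that nearest to a start site.
UNG: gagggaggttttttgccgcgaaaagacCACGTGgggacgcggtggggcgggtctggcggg
TDG: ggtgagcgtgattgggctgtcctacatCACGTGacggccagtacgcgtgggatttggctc
NTHL1: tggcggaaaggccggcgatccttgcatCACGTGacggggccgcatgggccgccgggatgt
MPG: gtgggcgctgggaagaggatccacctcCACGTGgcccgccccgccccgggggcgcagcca

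These stretches are chr12:109098098-109098157 and chr12:103965765-103965824 on the plus strand, chr16:2047844-2047903 on the minus strand and chr16:78097-78156 on the plus strand (GRCh38.p14). The E box begins 47, 80, 42 and 101 bases before a listed start site of UNG, TDG, NTHL1 and MPG. UNG, TDG and NTHL1 fell and MPG rose, so genes with these letters were found in both directions.

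The genes of the later steps of base excision repair changed less. APEX1, the main endonuclease that cuts at sites without a base, was at 2386 ± 10.2 in normoxia and 2219 ± 55.8 in hypoxia (change -0.10; 95% confidence interval -0.23 to 0.025, adjusted p = 0.188). Its groups did not overlap, and an intensity trend in limma brought it past the threshold (adjusted p = 0.0459). APEX2, a related nuclease, was at 603, 549 and 591 in normoxia and at 355, 391.6 and 381 in hypoxia. It fell by 0.61 (SE 0.069, adjusted p = 0.000942). Its other probe set, at 109 ± 20.5 and 105 ± 28.9, had overlapping groups, and with the mean of both the call was lost (-0.34, adjusted p = 0.108).

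The scaffold XRCC1 and the ligase LIG3, which bind each other, did not share a call. XRCC1 was at 559.5, 493 and 492 in normoxia and at 733, 673 and 649 in hypoxia, and rose by 0.40 (SE 0.082, adjusted p = 0.0105) with separate groups. LIG3 was at 707, 511 and 539.98 in normoxia and at 776, 681 and 576 in hypoxia on its brightest probe set, with overlapping groups (change 0.21; 95% confidence interval -0.19 to 0.61, adjusted p = 0.393). Of the other 5 probe sets of LIG3, 2 fell, from 359 ± 13.2 to 264 ± 8.55 and from 344 ± 15.3 to 249 ± 16.3. Hence the reading of LIG3 depends on the probe set, and within arrays XRCC1 minus LIG3 overlapped between the conditions.

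POLB, the gap-filling polymerase, was at 1658 ± 62.8 in normoxia and 1469.9 ± 88.0 in hypoxia. Its change of -0.17 did not pass (95% confidence interval -0.34 to -0.0031, adjusted p = 0.107), with no overlap between the groups, and passed with median centring of the arrays (-0.24, adjusted p = 0.0330), with dim genes left out (adjusted p = 0.0360) and with an intensity trend (adjusted p = 0.0341). PARP1, the main poly(ADP-ribose) polymerase that senses strand breaks, was at 5723, 5428 and 5444 in normoxia and at 4585, 4319 and 4456 in hypoxia. It fell by 0.31 (SE 0.057, adjusted p = 0.00700). PARP2, its relative, was at 773 ± 55.0 in normoxia and 593 ± 60.2 in hypoxia and fell by 0.38 (adjusted p = 0.0246), and all 3 of its probe sets fell, by 0.33 to 0.41. Its call was lost without normoxia replicate 0 (-0.32, adjusted p = 0.0720), normoxia replicate 2 (-0.40, adjusted p = 0.0598), hypoxia replicate 1 (-0.34, adjusted p = 0.0810) or hypoxia replicate 2 (-0.33, adjusted p = 0.0802).

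In nucleotide excision repair, the genes of the incision nucleases moved in both directions. ERCC5 encodes XPG, the nuclease that cuts 3′ of the damage, and had the largest rise of the 32 genes. It was at 1748, 1549.7 and 1622 in normoxia and at 2869.9, 2873 and 2773 in hypoxia, 1.73-fold higher by the means (change of 0.79, SE 0.066, adjusted p = 0.000300). ERCC1 and ERCC4 (XPF) form the nuclease that cuts 5′ of the damage. ERCC1 was at 464, 476 and 488 in normoxia and at 670.04, 696 and 662 in hypoxia, and rose by 0.49 (SE 0.055, adjusted p = 0.000919). ERCC4 was at 481, 529.9 and 530.1 in normoxia and at 325, 399 and 381 in hypoxia, and fell by 0.47 (SE 0.094, adjusted p = 0.0104). The log2 value of ERCC1 minus that of ERCC4 went from -0.11 ± 0.0507 to 0.85 ± 0.135, a change of 0.96. A second probe set of ERCC1 also rose, by 0.54, and the remaining 1 was at 433 ± 16.8 and 513 ± 26.3 (adjusted p = 0.0507 in the limma fit of all probe sets).

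The genes of damage recognition did not rise. CETN2, centrin 2, a calcium-binding protein of both the centrosome and the recognition complex, was at 1442, 1291 and 1305 in normoxia and at 929, 873 and 837 in hypoxia. It fell by 0.60 (SE 0.074, adjusted p = 0.00129). RAD23B, which stabilises the same complex, was at 5186 ± 566 and 4992 ± 198, with overlapping groups (change -0.050; 95% confidence interval -0.28 to 0.18), and none of its other 3 probe sets passed. ERCC8 (CSA), part of a ubiquitin ligase that acts where RNA polymerase has stalled, was at 284, 289 and 263 in normoxia and at 193, 219 and 206 in hypoxia. It fell by 0.41 (SE 0.071, adjusted p = 0.00566), and its second probe set by 0.91. By mean intensity over all arrays the second was the brighter, at 252 against 242, and only the mean log2 value placed it second. The size of the fall of ERCC8 thus depends on the probe set. ERCC6 (CSB), the ATPase of the same transcription-coupled branch, was at 113, 109 and 128 in normoxia and at 97.2, 119 and 122 in hypoxia on its brightest probe set, with overlapping groups (change of -0.050, adjusted p = 0.767). Its other, dimmer probe set fell from 88.7 ± 1.27 to 63.0 ± 4.46 (change of -0.41, adjusted p = 0.00559 in the limma fit of all probe sets), and the mean of both passed at -0.23 (adjusted p = 0.0442).

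None of the genes that open the helix and check the damage passed. XPA, which checks the lesion and places the nucleases, was at 861 ± 35.0 and 899.9 ± 37.7 (change 0.063; 95% confidence interval -0.093 to 0.22). ERCC3 (XPB), a helicase subunit of transcription factor IIH, was at 768, 863 and 852 in normoxia and at 592, 742 and 663 in hypoxia, with no overlap. Its change of -0.31 missed the threshold (adjusted p = 0.0565) and passed in 6 of the 14 alternatives (adjusted p of 0.0186 with dim genes left out, to 0.0331 without hypoxia replicate 1). ERCC2 (XPD), the other helicase subunit, was the only gene of the 32 with a mean intensity under 100, at 74.9 ± 4.66 and 95.8 ± 22.8, and its groups overlapped (change 0.28; 95% confidence interval -0.091 to 0.65).

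Partners within the branches were compared as 6 pairs: MSH6 and MSH3, ERCC1 and ERCC4, UNG and SMUG1, NEIL3 and NEIL2, ERCC8 and ERCC6, and XRCC1 and LIG3. The within-array log2 difference did not overlap between the conditions in 5 of them, each with an exact two-sided permutation p of 0.1 (0.12 after Benjamini-Hochberg adjustment over the 6). That is the smallest p that 3 against 3 arrays allow. XRCC1 minus LIG3 had p = 0.2 in the same exact test. Pairs were chosen with results of these data known, so these p-values describe the arrays and are no independent support.

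Agreement between probe sets was examined for the 18 genes with several, the other 14 having 1. The 32 genes had 72 probe sets of their own, of which 28 fell, 7 rose and 37 did not pass. These calls are from limma fitted over all 41091 single-symbol probe sets, of which 18.0% fell and 15.8% rose. Of the 72, 57 had a mean intensity of at least 100. The shares over all probe sets include dim ones and were not computed without them. Of the 10 genes past the threshold with several probe sets, 7 had another probe set with the same call and none had one with the opposite call. The 3 without another were MSH3, APEX2 and ERCC4. The second probe set of MSH3, at 337 ± 32.8 and 343 ± 38.0, was at a change of 0.022 (95% confidence interval -0.25 to 0.30), so the rise of MSH3 rests on 1 of its 2 probe sets that were not dim. For MSH6, the second probe set fell by 1.61, and for PMS1 another 3 probe sets fell, by 0.58 to 0.72. In 3 genes that did not pass on the brightest probe set, MBD4, LIG3 and ERCC6, another one did.

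**Figure D4:**
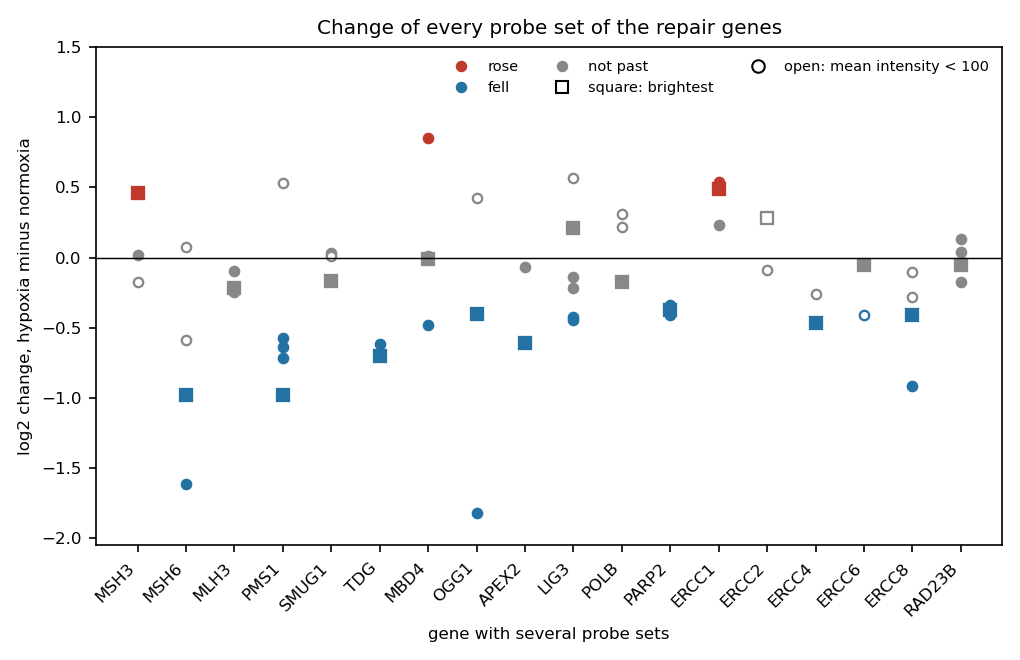
Log2 change, hypoxia minus normoxia, of every probe set of the 18 repair genes with several; squares mark the brightest probe set, open symbols a mean intensity under 100, and colour the call over all probe sets. MBD4 has probe sets at 0.85 and -0.48 that passed in opposite directions, and those of OGG1 that fell lie at -0.40 and -1.82.

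The 3 hypoxia arrays did not share the lowest place evenly. Replicate 0 was the lowest hypoxia array for 11 of the 15 repair genes that fell, replicate 1 for 2 and replicate 2 for 2. Over all 4068 genes that fell, replicate 0 was the lowest for 51.5%, replicate 1 for 14.7% and replicate 2 for 33.8%. Without hypoxia replicate 0, all 20 calls of the repair genes were kept, and the median of the 32 genes was -0.20.

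Repair ends with resynthesis and ligation by proteins that also serve replication, and their transcripts fell nearly throughout. Of 19 such genes, 17 fell (89.5%) and 2 rose (10.5%), with a median of -1.12. Over all genes, 20.6% fell and 16.9% rose. With dim genes left out, the counts of the 19 were the same, against 39.0% and 31.3%. The smallest adjusted p-values were those of the flap endonuclease FEN1, from 5490.3 ± 129.7 to 1106 ± 20.8, POLE2, from 836 ± 28.3 to 111 ± 9.69, the clamp loader subunit RFC3, from 4201 ± 56.8 to 1336 ± 31.5, and the sliding clamp PCNA, from 8018 ± 314 to 2602 ± 138. LIG1, the ligase of long-patch repair and replication, fell from 669 ± 17.5 to 409 ± 19.1. POLD4, the smallest subunit of polymerase delta, and RFC1, the largest of the clamp loader, rose, by 1.01 and 0.20, and the number that rose was 1 with median centring, with the mean of probe sets, with the replicate block and without any 1 array other than hypoxia replicate 0. Since these proteins also serve replication, it matters that the part of replication activity in the falls of repair genes was not tested.

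As a mark of cycling cells, 10 mitosis genes were read beside these. Of them, 3 rose (BUB1, TOP2A and CDC20), 1 fell (CCNB1) and 6 did not pass, with a median of 0.071. A share of 3 in 10 (30%) compares with 16.9% of all genes that rose. With dim genes left out, 4 of the 10 rose (40%), against 31.3%. With so few genes, both shares are near the background, though above it. CDC20 passed at an adjusted p of 0.0486 in limma. The number that rose was 2 with a pseudocount of 1, median centring, the mean of probe sets, or without any 1 array other than hypoxia replicate 0, and 4 in 4 alternatives. With a pseudocount of 64, median centring, dim genes left out, the mean of probe sets or an intensity trend, 2 fell. BUB1 went from 3855 ± 95.6 to 5872 ± 82.7, TOP2A from 5093 ± 104 to 6435 ± 272, and CCNB1 from 3009 ± 41.1 to 2318 ± 16.5. CDC20 was at 1806 ± 98.0 and 2120.4 ± 104.5.

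Transcription factor IIH opens the helix in nucleotide excision repair and at promoters, and 7 of the 8 listed subunits outside the ERCC genes were read. GTF2H1, GTF2H4 and CDK7 fell (42.9%), GTF2H3 and CCNH rose (28.6%), and 2 did not pass. Over all genes, 20.6% fell and 16.9% rose. With dim genes left out, the shares of the 7 were the same, against 39.0% and 31.3%, and are thus near the background. GTF2H1 went from 2079 ± 85.5 to 1006 ± 54.8, CCNH from 2099.9 ± 31.2 to 2660.3 ± 45.2 and GTF2H3 from 755 ± 63.9 to 1170.0 ± 114. GTF2H4 went from 439 ± 36.5 to 289.6 ± 42.1. The median was 0.090 and turned to -0.23 with the mean of all probe sets, when 1 gene rose. Without normoxia replicate 1, 1 of these genes fell.

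Other nucleotide excision factors were 4 in number. UVSSA, which acts with ERCC6 and ERCC8 at stalled RNA polymerase, rose from 519 ± 32.4 to 1193 ± 84.7 (change of 1.18, SE 0.080, adjusted p = 0.000148). XAB2, ELOF1 and CETN3 did not pass, at 0.58, 0.020 and 0.035. The share of 25% that rose compares with 16.9% of all genes. With dim genes left out, 2 of the 4 rose (50%), against 31.3%. The number that rose was 2 also with an intensity trend or without hypoxia replicate 0.

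Of 8 further genes of single-strand break handling and end joining, 5 fell (62.5%), 1 rose (12.5%) and 2 did not pass, with a median of -0.24. Over all genes, 20.6% fell and 16.9% rose. With dim genes left out, 5 of 7 fell (71.4%), against 39.0%, and 1 rose (14.3%), against 31.3%. APTX, which removes adenylate left by failed ligation, fell from 1485 ± 55.6 to 656 ± 39.0, and PARG, which degrades poly(ADP-ribose), from 877 ± 32.8 to 604.5 ± 11. XRCC6 and HMGB1 fell by 0.27 and 0.25. POLL was at 1.01 ± 0.0173 and 2.72 ± 2.63, at the bottom of the scale. The number that fell was 3 without normoxia replicate 0, normoxia replicate 2, hypoxia replicate 1 or hypoxia replicate 2, and the 1 rise, of APLF at 0.24, was lost in 10 of the 14 alternatives.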

How the data were processed

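RNA of MM1S was measured on 6 single-colour arrays, 3 per condition. Values in the deposited table are intensity on a linear scale. The authors' background correction, probe summary and array scaling are not given in the sources used here. RNA was, per the labels, amplified into biotin-labelled cRNA. Of 54613 probe sets, 41091 were annotated to 1 symbol by the platform annotation and were used; 1801 had several symbols and 11721 had none. Symbols were updated through Entrez identifiers in RefSeq, which matched 41037. Array medians were 54.95 to 60.1, and with no detection calls a dim intensity cannot be told from background; the number of arrays limits precision.

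Of a gene's single-symbol probe sets, the brightest by mean log2(intensity + 16) over all arrays was read. limma 3.58.1 (lmFit and eBayes) in R 4.3.3 compared hypoxia with normoxia over 19775 genes, two-sided, with no covariates. The same fit was also run on simulated data with far fewer changed genes and independent noise, which gives the calls here no support. Confidence intervals are at the 95% level. Values in every array are printed for genes past the threshold with a log2 change of at least 0.5 and, on the brightest probe set, for genes whose probe sets disagree; up to 4 genes by adjusted p of each related list are named. Other values in every array, and other named genes, were chosen after their values were seen. The alternatives were pseudocounts of 1 and 64, median centring, quantile normalization, leaving out genes under a mean intensity of 100, the mean of all probe sets, an intensity trend, the replicate number as a block, and leaving out each array. The members and lists were chosen with earlier results of these data known. The titles do not say that the replicate numbers pair the arrays, so the numbers were not taken as pairs. In their deviations from the group means, same-numbered arrays correlated at 0.24, 0.0064 and 0.21, and differently numbered arrays at -0.25 to 0.11. A pairing is thus not excluded.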

Additional observations from a re-analysis of the deposited data

How the results depend on the processing

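Of the 20 repair genes past the threshold, 16 kept direction and call in all 14 alternatives, and MSH3, APEX2, OGG1 and PARP2 did not, as given above; 5 of the other 12 passed in at least 1. With the replicate block, 16 repair genes fell and 5 rose, against 4140 and 3493 of all genes, and ERCC3 was the only repair gene whose call changed. Median centring moved the medians to -0.33 for all repair genes, -1.04 for mismatch, -0.38 for base excision and -0.12 for nucleotide excision repair, and the median of all genes to -0.066. Quantile normalization gave -0.90 for mismatch repair. With the mean of probe sets these were -0.48 for mismatch repair, with 0 rising, and -0.12 for nucleotide excision repair. Leaving out 1 array at a time, the ranges were -0.30 to -0.20 for all repair genes, -0.997 to -0.952 for mismatch, -0.33 to -0.29 for base excision and -0.10 to 0.016 for nucleotide excision repair, with 13 to 15 repair genes that fell and 5 that rose. Signs turned only in genes that did not pass: MBD4 (0.024 with quantile normalization, 0.092 with the mean of probe sets), LIG3 (-0.075) and POLB (0.12) with the mean of probe sets, XPA (-0.0020) with median centring, and the list of transcription factor IIH (-0.23). Without 1 array, signs turned for MBD4 (-0.051 to 0.032), NEIL2 (-0.16 to 0.040), ERCC6 (-0.10 to 0.039) and RAD23B (-0.14 to 0.020). The cause was not tested. Dim probe sets limit ERCC2, ERCC6 and the second probe set of ERCC4.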

Other observations

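Most listed genes that keep damaged precursors out of DNA, or reverse damage directly, were lower in hypoxia. Of 6 listed genes, 5 fell (83.3%), against 20.6% of all genes. MGMT, the alkylguanine transferase, was at the bottom of the scale, at 2.48 ± 2.57 in normoxia and 1.41 ± 0.716 in hypoxia. With dim genes left out, 5 of 5 fell, against 39.0% of all genes. ALKBH2, an oxygen-dependent dioxygenase that reverses alkylation of DNA bases, fell from 656 ± 23.5 to 314 ± 20.6 (log2 change -1.03, limma adjusted p = 0.000146), and its relative ALKBH3 fell by 0.37. NUDT5, which hydrolyses oxidised nucleotides, fell from 3776 ± 76.4 to 1952 ± 51.9, and NUDT1, which removes oxidised purine triphosphates, by 0.70. DUT, which keeps uracil out of DNA, fell from 9485 ± 536 to 6457 ± 261. The median of the list was -0.63, and 5 genes fell also when any 1 array was left out. With quantile normalization 4 fell. The median was -0.58 with a pseudocount of 64 and -0.86 with the mean of probe sets.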
